A study of Mus musculus with 6 samples.

Results

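The miRNAs described here come from the 4 Hox clusters of the mouse genome: mmu-miR-10a-5p, mmu-miR-10a-3p, mmu-miR-10b-5p, mmu-miR-10b-3p, mmu-miR-196a-5p, mmu-miR-196b-5p and mmu-miR-615-3p. They were taken by name, with earlier results of these data known, and are 7 of the 1907 mature miRNA names in the count files. The counts are from primary dermal fibroblasts of newborn mice, cultured for 6 days and sequenced at passage 1. In 3 libraries (caNrf2, genotype Col1a2Cre-caNrf2) the cells carried a constitutively active mutant of Nrf2, the transcription factor of antioxidant and detoxification genes, together with Col1a2Cre. In 3 libraries (ctrl, genotype Col1a2Cre-wt) they carried Col1a2Cre alone, so both groups have the Cre, which is expressed in fibroblasts from the Col1a2 promoter. Each library came from a different mouse, and the strain of both groups was mixed, 50% C57Bl/6 and 50% FVB/N. miRNA counts hold no measure of Nrf2 mRNA, so the genotypes could not be checked in them, and the body site of the skin is not given in the sources used here. Library totals ran from 10443268 to 28237159 counts.

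A miRNA precursor is a hairpin whose stem is cut into a 5p and a 3p arm. One arm usually enters the silencing complex, and bases 2 to 8 of that arm, the seed, do most of the target pairing. Hox genes encode the transcription factors that set position along the body axis, and cultured fibroblasts keep a Hox pattern that depends on where in the body they came from. The miR-10 and miR-196 genes sit between or inside annotated Hox genes and are transcribed in the same direction. miR-196 is known to repress Hoxb8 and other Hox genes, and miR-10 has Hox genes such as Hoxd10 among its reported targets. miR-615 lies in the Hoxc cluster.

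The sequences place the 7 miRNAs in seed groups, with bases 2 to 8 in capitals (RefSeq, GRCm38.p6, 5′ to 3′).
miR-10a-5p: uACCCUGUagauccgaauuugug
miR-10b-5p: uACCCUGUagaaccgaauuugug
miR-10a-3p: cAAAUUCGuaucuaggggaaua
miR-10b-3p: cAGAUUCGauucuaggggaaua
miR-196a-5p: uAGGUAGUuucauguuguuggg
miR-196b-5p: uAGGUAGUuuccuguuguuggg
miR-615-3p: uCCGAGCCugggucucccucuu
The miR-10a-5p and miR-10b-5p sequences share the seed ACCCUGU and differ by 1 base, U12A, with positions counted from 1 at the 5′ end and the base of miR-10a-5p first. miR-196a-5p and miR-196b-5p share the seed AGGUAGU and also differ by 1 base, A12C (miR-196a-5p first). Among the names of the count files with a RefSeq sequence, no others had these 2 seeds. The 3p arms of miR-10a and miR-10b differ at 3 positions, A3G, U9A and A10U (miR-10a-3p first), of which 1 is in the seed. How many mismatches the submitters allowed in mapping is not given in the sources used here, so some reads of a pair that differs by 1 base could have been counted under the other name.

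The hairpins of Mir10a and Mir10b are shown because both arms of each were lower in caNrf2 fibroblasts (the 5p and 3p arms in capitals).
Mir10a: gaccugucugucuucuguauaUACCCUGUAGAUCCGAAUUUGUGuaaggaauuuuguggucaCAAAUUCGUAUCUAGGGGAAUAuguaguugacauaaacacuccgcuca
Mir10b: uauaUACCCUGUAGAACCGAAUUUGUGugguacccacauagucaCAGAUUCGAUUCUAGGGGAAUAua
Mir10a is a 110-base hairpin at chr11:96317165-96317274 on the plus strand (GRCm38, the mm10 assembly, GENCODE M21). It overlaps no annotated gene and lies in the Hoxb cluster, 993 bases upstream of Hoxb4. Mir10b is a 68-base hairpin at chr2:74726070-74726137 on the plus strand, in the Hoxd cluster, within introns of Hoxd4 and Hoxd3. The mature miR-196a-5p comes from 2 precursors. Mir196a-1 (chr11:96265164-96265265, plus strand) overlaps no annotated gene and lies 6192 bases upstream of Hoxb9, and Mir10a follows it at a distance of 51.9 kb. Mir196a-2 (chr15:102973350-102973434, plus strand) lies between Hoxc10 and Hoxc9, in an intron of 1 Hoxc5 transcript. Mir196b (chr6:52230081-52230165, minus strand) is in the Hoxa cluster, 1032 bases downstream of the end of Hoxa10, in noncoding exons of 2 Hoxa9 transcripts and an intron of 1 other. Mir615 (chr15:103014910-103015001, plus strand) lies in introns of Hoxc5, 41.5 kb after Mir196a-2.

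**Figure D1:**
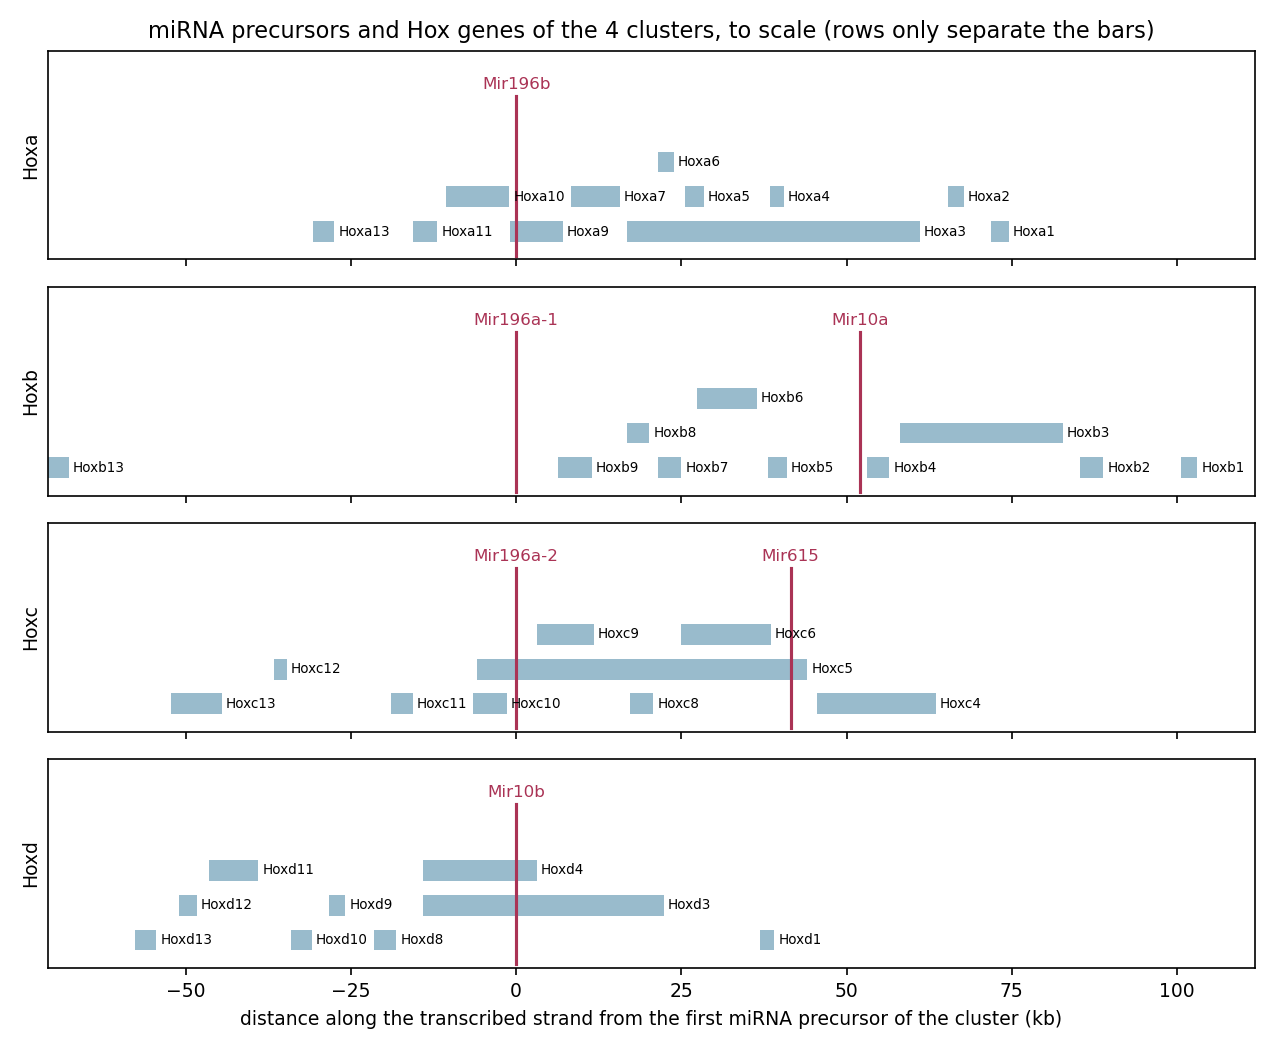
Positions of the 6 miRNA precursors (red lines) and the annotated Hox genes (bars) in the Hoxa, Hoxb, Hoxc and Hoxd clusters, in kb along the transcribed strand from the first precursor of each cluster. Mir196a-1 and Mir10a share the Hoxb cluster, 51.9 kb apart, and Mir196a-2 and Mir615 share the Hoxc cluster, 41.5 kb apart.

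In control fibroblasts miR-10b-5p was the most abundant of the 7, at rank 5 of all miRNAs, with 46814 ± 2065 CPM (CPM are counts relative to the TMM-scaled library total; mean ± SD, n = 3 per group here and below). miR-10a-5p followed at rank 14 with 14414 ± 3075 CPM. Then came miR-196a-5p with 1745 ± 182 CPM, miR-615-3p with 684 ± 30.3 CPM and miR-196b-5p with 224 ± 46.4 CPM. The libraries of each of these 5 lay apart from those of the next. The lowest levels were those of miR-10a-3p and miR-10b-3p, 35.2 ± 4.36 and 32.7 ± 5.03 CPM, whose ranges overlapped. The order of the 7 means was the same in caNrf2 fibroblasts, where miR-10b-5p was at rank 6. These levels are read levels, all from sequences of 22 or 23 bases. Adapters do not join every small RNA equally well, so levels of different miRNAs are not molar amounts.

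**Figure D2:**
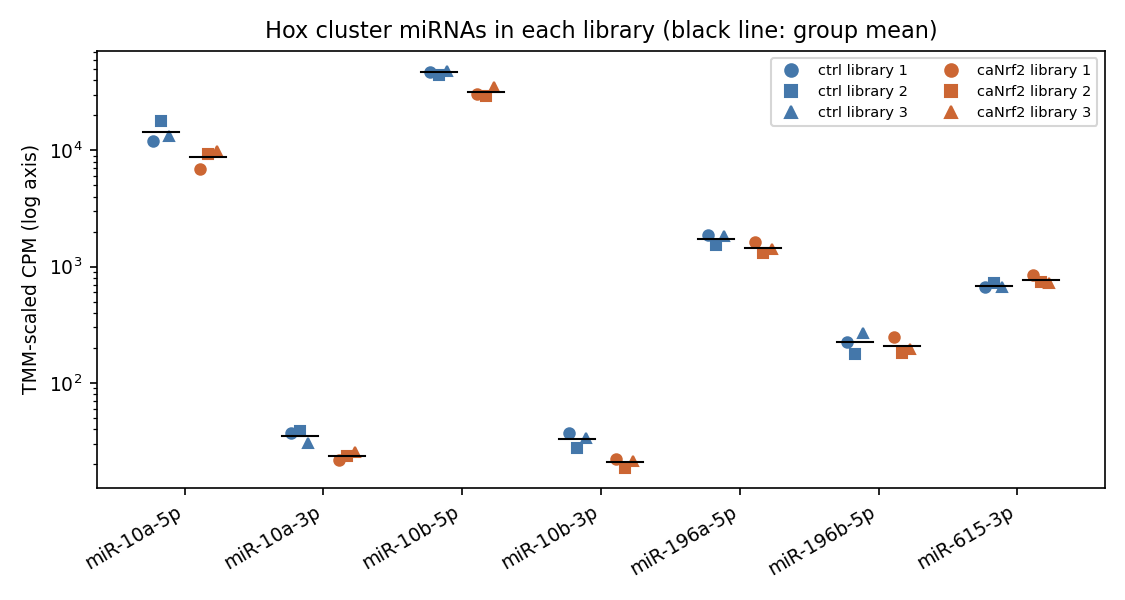
TMM-scaled CPM (log axis) of the 7 Hox cluster miRNAs in each of the 3 ctrl (blue) and 3 caNrf2 (orange) libraries, with group means as black lines. The caNrf2 libraries lie below all ctrl libraries for the 4 miR-10 arms, overlap them for miR-196a-5p and miR-196b-5p, and lie above them for miR-615-3p.

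The comparison of caNrf2 with control fibroblasts asks which miRNAs differ when Nrf2 is constitutively active. All 4 miR-10 arms fell in caNrf2 fibroblasts, to between 60.5% and 67.7% of control, and the miR-196 and miR-615 miRNAs did not pass the test. All 7 miRNAs had enough counts to be tested. By edgeR's quasi-likelihood test, with Benjamini-Hochberg adjustment over the 697 tested miRNAs and a threshold of 0.05, 4 fell and 0 rose. DESeq2 called the numbers 4 and 0 too, and at an unadjusted p under 0.05 edgeR had 5 lower and 0 higher. Over all 697 tested miRNAs edgeR called 25.7% in either direction and 11.6% lower at the adjusted threshold. DESeq2 called 96 of them lower and 92 higher. The share of all tested miRNAs under the unadjusted threshold was not counted. The 4 falls come from only 2 precursors and their arms are not independent. The median log2 fold change of the 7 was -0.56, that of miR-10b-5p, against 0.03 over all tested miRNAs. Labels put the libraries of a group in separate mice, so the p-values measure the spread between mice and their cultures. In bulk RNA, fewer cells that make a miRNA and less of it per cell cannot be told apart.

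miR-10b-5p of the Hoxd cluster, the best expressed, had 47380, 44525 and 48536 CPM in control libraries 1, 2 and 3 and 30294, 29447 and 35373 CPM in caNrf2 libraries 1, 2 and 3. Every caNrf2 library lay below every control, with a gap larger than the range within either group. The log2 fold change was -0.56 ± 0.10 (SE; edgeR adjusted p = 0.00245), and it stayed between -0.66 and -0.53 in the 14 alternative fits. As a share of all counts miR-10b-5p went from 4.64% ± 0.17 to 3.19% ± 0.29, with every caNrf2 library below every control. An exact permutation test (two-sided) gave p = 0.1, which is the lowest possible with 3 and 3 libraries. Of the counts other than those of miR-22-3p, the most abundant miRNA, miR-10b-5p made up 5.64% ± 0.22 and 4.11% ± 0.32.

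miR-10a-5p of the Hoxb cluster, with the same seed, had 12098, 17903 and 13242 CPM in the control libraries and 6865, 9338 and 9952 CPM in the caNrf2 libraries. The groups did not overlap, but control library 2 and caNrf2 library 1 stood apart within their groups. The log2 fold change was -0.73 ± 0.17 (edgeR adjusted p = 0.00941), and 2.73% of the tested miRNAs had one as low or lower (7.60% for miR-10b-5p). Without control library 2 it was -0.55 (edgeR adjusted p = 0.0302), and without caNrf2 library 1 it was -0.58 (0.0311). Its coefficient of variation in controls was 21.3%, against 4.41% for miR-10b-5p.

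The 3p arms, which are the minor products of both hairpins, had 308 to 707 counts per library. miR-10a-3p had 37.2, 38.2 and 30.2 CPM in the controls and 21.6, 23.6 and 25.3 CPM in the caNrf2 libraries. The groups did not overlap, and the log2 fold change was -0.58 ± 0.15 (edgeR adjusted p = 0.0148). miR-10b-3p had 37.3, 27.3 and 33.6 CPM against 22.0, 18.5 and 21.4 CPM. These groups did not overlap either, and miR-10b-3p changed by -0.66 ± 0.16 on the log2 scale (edgeR adjusted p = 0.0108). For 4 of the 7 miRNAs, then, all caNrf2 libraries lay below all controls, as they did for 17.9% of the tested miRNAs. Both 3p arms were called in each of the 14 alternative fits, with adjusted p up to 0.0441 for miR-10a-3p and 0.0390 for miR-10b-3p.

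miR-196a-5p, counted from the Hoxb and Hoxc precursors together, had 1866, 1535 and 1833 CPM in the controls and 1631, 1322 and 1407 CPM in the caNrf2 libraries. The groups overlapped, with caNrf2 library 1 above control library 2. Its log2 fold change was -0.26 ± 0.10 (95% interval -0.49 to -0.03; edgeR adjusted p = 0.0873), so it did not pass. It passed in 4 of 14 alternatives, among them those without control library 2 (-0.36, edgeR adjusted p = 0.0378), without caNrf2 library 1 (-0.36, 0.0435) and with RLE size factors (-0.30, 0.0467).

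The 3p arms tell the miR-196a precursors apart. Neither passed in the main edgeR fit, where 1 of the 2 had an unadjusted p under 0.05. miR-196a-1-3p of the Hoxb cluster had 23.5, 26.7 and 22.0 CPM against 29.0, 21.0 and 21.6 CPM, with a log2 fold change of -0.02 ± 0.17 (95% interval -0.39 to 0.35; edgeR adjusted p = 0.955), whose sign turned in 5 of 14 alternatives. miR-196a-2-3p of the Hoxc cluster had 28.5, 28.9 and 40.3 CPM against 23.4, 26.1 and 22.0 CPM. Its groups did not overlap, and control library 3 was the highest. Its log2 fold change was -0.45 ± 0.17 (95% interval -0.83 to -0.08; edgeR adjusted p = 0.0755), and it passed with DESeq2 (adjusted p = 0.0139), limma-voom (0.0485) and no filter (0.0351). Without control library 3 it was -0.27 (edgeR adjusted p = 0.273). The ratio of miR-196a-1-3p to miR-196a-2-3p was 0.825, 0.924 and 0.547 in the controls and 1.24, 0.803 and 0.979 in the caNrf2 libraries, and these ranges overlap.

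miR-196b-5p of the Hoxa cluster, which has the seed of miR-196a-5p, had 224, 177 and 270 CPM in the controls and 246, 179 and 197 CPM in the caNrf2 libraries. The groups overlapped almost wholly. The log2 fold change was -0.11 ± 0.16 (95% interval -0.46 to 0.25; edgeR adjusted p = 0.651), and 0.049 without control library 3. Its 3p arm, miR-196b-3p, had 36 counts in all controls together and 31 in all caNrf2 libraries (-0.68 ± 0.55, edgeR adjusted p = 0.395), and no difference was detectable at this depth.

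miR-615-3p of the Hoxc cluster had 667, 719 and 666 CPM in the controls and 850, 735 and 725 CPM in the caNrf2 libraries. It was the only one of the 7 with all caNrf2 libraries above all controls, as 23.7% of the tested miRNAs were, and caNrf2 libraries 2 and 3 lay close to control library 2. The log2 fold change was 0.17 ± 0.08 (95% interval -0.02 to 0.36; edgeR adjusted p = 0.172) and did not pass in any of 14 alternatives. Without caNrf2 library 1, the highest, it was 0.087 (edgeR adjusted p = 0.414). The other arm, miR-615-5p, had 81.8, 94.0 and 95.1 CPM against 79.5, 75.8 and 75.2 CPM, a log2 difference of -0.23 ± 0.11 (edgeR adjusted p = 0.146). The arms of this precursor thus lay on opposite sides of 0, neither past the threshold. The ratio of miR-615-3p to miR-615-5p was 8.16, 7.65 and 7.0 in the controls and 10.7, 9.70 and 9.64 in the caNrf2 libraries. This ratio, chosen after its values were seen and so not tested, was higher in every caNrf2 library than in every control, by 0.40 ± 0.08 (SE) on the log2 scale.

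**Figure D3:**
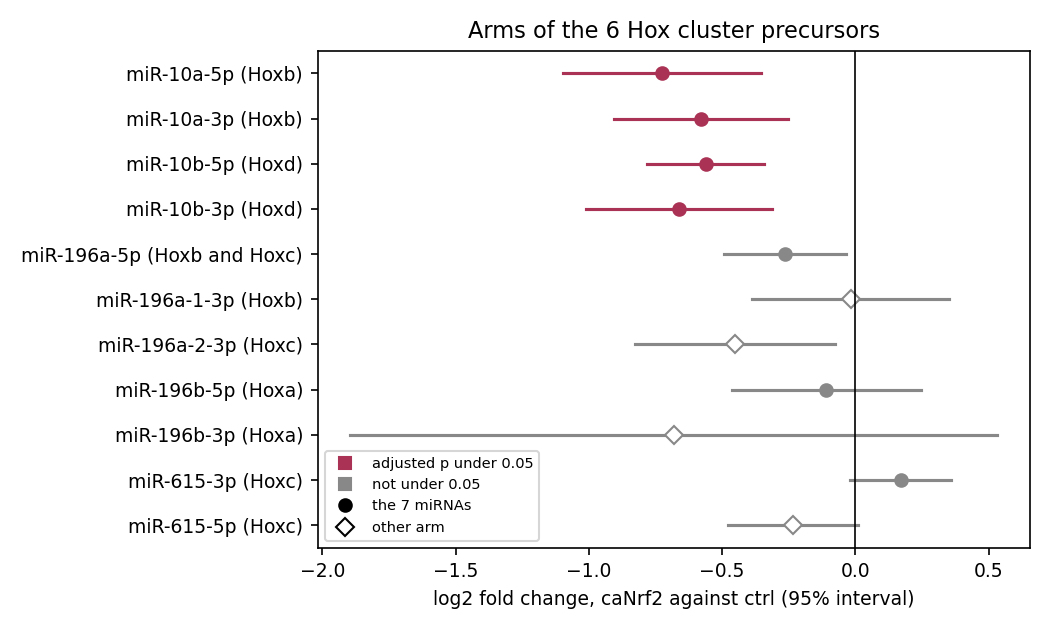
Log2 fold changes (caNrf2 against ctrl, n = 3 libraries each) with 95% intervals for the 7 Hox cluster miRNAs (filled circles) and the 4 other arms of their precursors (open diamonds), with the Hox cluster in parentheses. The 4 miR-10 arms, in red, passed the adjusted p of 0.05 and lie between -0.73 and -0.56; the intervals of miR-196b-5p, miR-196b-3p, miR-196a-1-3p, miR-615-3p and miR-615-5p include 0.

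**Figure D4:**
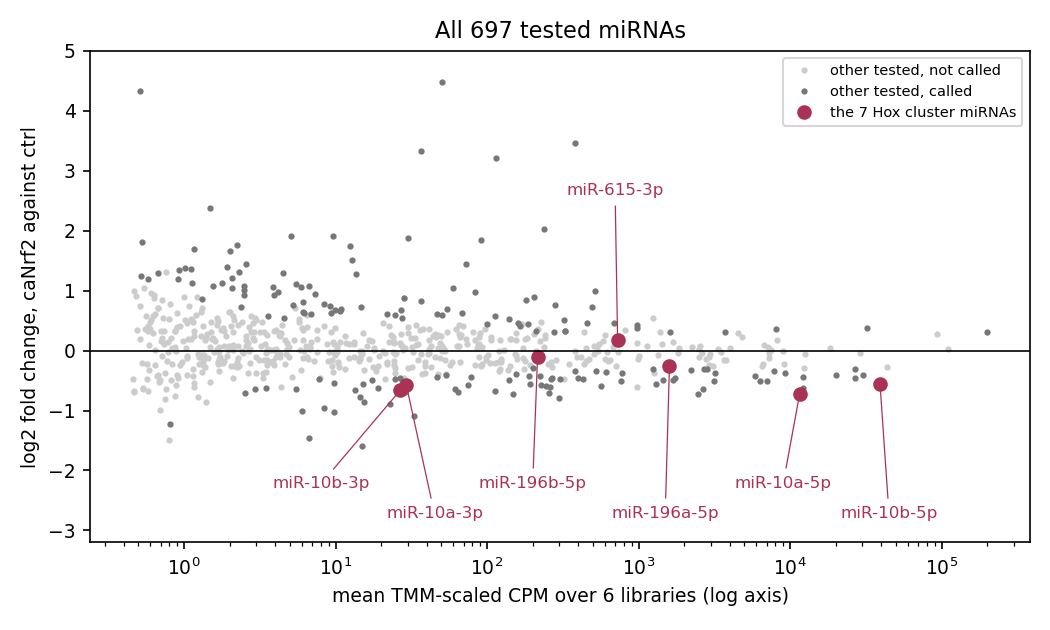
Log2 fold change (caNrf2 against ctrl) against mean TMM-scaled CPM (log axis) for the 697 tested miRNAs, with called miRNAs in dark grey and the 7 Hox cluster miRNAs in red. miR-10b-5p and miR-10a-5p lie at the high end of expression with log2 fold changes of -0.56 and -0.73.

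Whether these miRNAs changed by different amounts was asked with ratios inside each library, which need no library scaling. There were 7 ratios (0.5 counts added to each value), each with a two-sided exact permutation test whose smallest p with 3 against 3 libraries is 0.1. None could therefore reach 0.05, and after adjustment over the 7 the lowest p was 0.35. The ratio of miR-10a-5p to miR-10b-5p was 0.255, 0.402 and 0.273 in the controls and 0.227, 0.317 and 0.281 in the caNrf2 libraries. Control library 2 stood above the rest. The groups overlapped, and the mean log2 difference of -0.16 ± 0.25 (SE; exact permutation p = 0.7) became 0.046 without control library 2. A difference in size between the falls of the paralogs was not detectable with these libraries.

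The 5p arm outnumbered the 3p arm in both miR-10 hairpins. For miR-10a the ratio was 325, 469 and 439 in the controls and 317, 395 and 393 in the caNrf2 libraries, and for miR-10b it was 1270, 1628 and 1443 against 1373, 1587 and 1649. The groups overlapped in both cases (log2 differences -0.15 ± 0.19 and 0.09 ± 0.13, exact permutation p = 0.5 and 0.6). For miR-10a the difference was -0.04 without control library 2 or without caNrf2 library 1. No change in the balance of the arms was detectable with 3 libraries per group.

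Against miR-196a-5p, miR-10b-5p was lower in every caNrf2 library. That ratio was 25.4, 29.0 and 26.5 in the controls and 18.6, 22.3 and 25.1 in the caNrf2 libraries, with caNrf2 library 3 close to control library 1. The log2 difference was -0.30 ± 0.14 (exact permutation p = 0.1, adjusted over the 7 ratios 0.35), and -0.19 without caNrf2 library 1. The ratio of miR-10a-5p to miR-196a-5p overlapped between groups (-0.46 ± 0.36, exact permutation p = 0.4), and its difference was -0.20 without control library 2 and -0.21 without caNrf2 library 1. Within the Hoxb cluster, the ratio of miR-10a-3p to its neighbour miR-196a-1-3p was 1.58, 1.43 and 1.37 in the controls and 0.746, 1.12 and 1.17 in the caNrf2 libraries. It was chosen after the values were seen and not tested, and all caNrf2 libraries lay below all controls. The log2 difference was -0.55 ± 0.22 (SE), and -0.34 without caNrf2 library 1.

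The ratio of miR-615-3p to miR-196a-5p was 0.358, 0.469 and 0.364 in the controls and 0.521, 0.556 and 0.515 in the caNrf2 libraries, without overlap (0.43 ± 0.13, exact permutation p = 0.1, adjusted 0.35). The ratio of miR-196a-5p to miR-196b-5p overlapped, at 7.93 ± 1.00 and 7.05 ± 0.38 (SD; log2 difference -0.16 ± 0.12 SE, exact permutation p = 0.3).

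**Figure D5:**
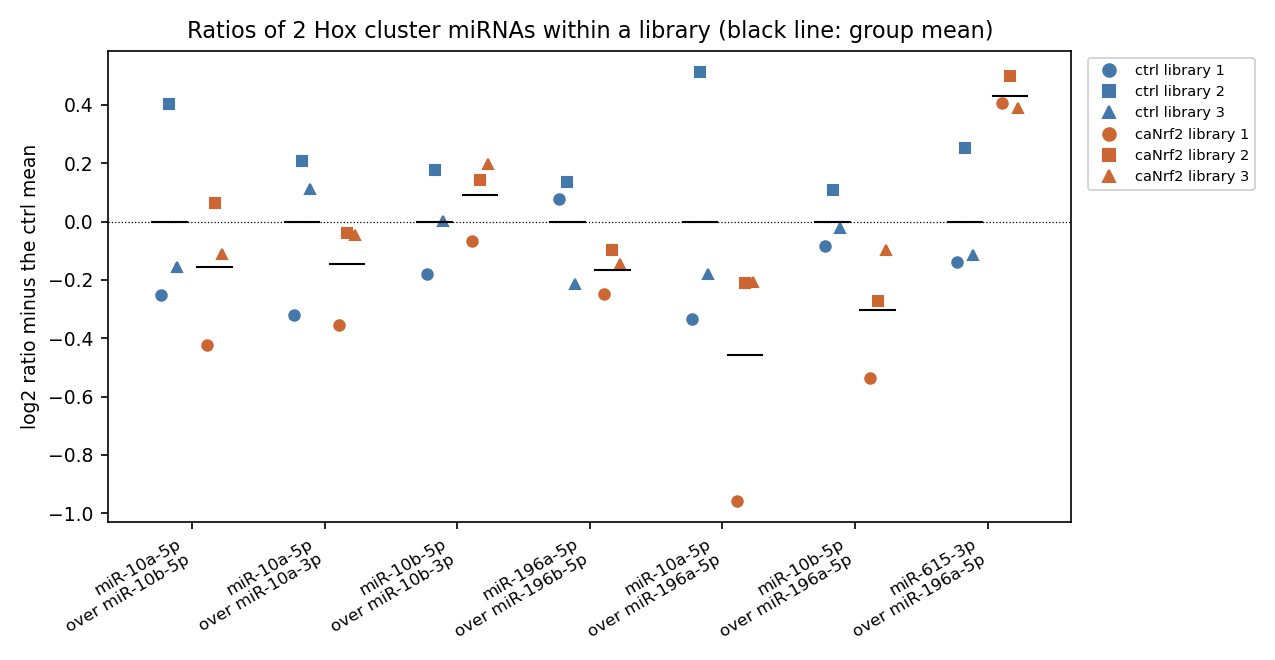
Log2 ratios of 2 Hox cluster miRNAs in each library, less the ctrl mean of that ratio, for 3 ctrl (blue) and 3 caNrf2 (orange) libraries with group means as black lines. Only miR-10b-5p over miR-196a-5p and miR-615-3p over miR-196a-5p separate the groups, with mean differences of -0.30 and 0.43.

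Together the 7 miRNAs took 6.35% ± 0.15 of all counts in control and 4.32% ± 0.35 in caNrf2 fibroblasts. Of that sum the miR-10b arms of the Hoxd cluster made up 73.3% ± 4.08 in controls and 74.0% ± 2.10 in caNrf2 fibroblasts, and the miR-10a arms of the Hoxb cluster 22.6% ± 4.43 and 20.3% ± 2.82. The 5p arms with the seed ACCCUGU held 6.08% ± 0.16 of all counts in controls and 4.07% ± 0.36 in caNrf2 fibroblasts. Those with the seed AGGUAGU held 0.195% ± 0.021 and 0.168% ± 0.024.

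miR-99a-5p, miR-99b-5p and miR-100-5p belong to the same superfamily as miR-10 but have another seed.
miR-100-5p: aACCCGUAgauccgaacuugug
miR-99b-5p: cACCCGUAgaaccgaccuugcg
With 1 base left out of miR-10a-5p, miR-100-5p differs from it at 2 of 22 positions and miR-99b-5p at 5. Of the 3 relatives 1 fell and 0 rose by edgeR (2 and 0 by DESeq2, and 2 and 0 at an unadjusted edgeR p under 0.05), and their median log2 fold change was -0.58. miR-99a-5p fell from 292 ± 25.5 to 195 ± 29.9 CPM (log2 fold change -0.58 ± 0.12, edgeR adjusted p = 0.00533). miR-100-5p had 1179 ± 369 and 773 ± 135 CPM (-0.61 ± 0.21, edgeR adjusted p = 0.0587), and its groups overlapped through control library 3; without that library it passed (-0.84, 0.00558), as it also did in 3 other alternatives. miR-99b-5p had 6526 ± 1092 and 6938 ± 339 CPM (0.09 ± 0.12, edgeR adjusted p = 0.615).

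The seed of miR-196, AGGUAGU, is also found in let-7 miRNAs, shifted by 1 base, at bases 3 to 9 of let-7a-5p.
let-7a-5p: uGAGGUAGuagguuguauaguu
Of 11 names with the let-7 seed, 5 were listed as relatives (let-7a-5p, let-7b-5p, let-7c-5p, let-7i-5p and miR-98-5p), and of these 2 fell and 0 rose by edgeR (3 and 0 by DESeq2, and 3 and 0 at an unadjusted edgeR p under 0.05). Over all 9 tested names with the let-7 seed the calls were these same 2, and let-7d-5p, let-7e-5p, let-7f-5p and let-7g-5p, with log2 fold changes of 0.17, -0.10, -0.03 and -0.05, did not pass. The share called lower by edgeR over all tested miRNAs was 11.6%. let-7b-5p fell from 1690 ± 161 to 1199 ± 212 CPM (edgeR adjusted p = 0.0140) and let-7c-5p from 8725 ± 421 to 6883 ± 539 CPM (0.0140). The other 3 had log2 fold changes of 0.06 (let-7a-5p), 0.08 (miR-98-5p) and -0.27 (let-7i-5p). let-7i-5p had an edgeR adjusted p of 0.0605 and passed in 6 of 14 alternatives.

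Over the 364 other tested miRNAs whose mean reached 10 CPM, the levels most like those of miR-10b-5p over the 6 libraries were those of miR-214-5p, miR-181b-5p and miR-148a-3p (Pearson r of log2 CPM 0.99, 0.98 and 0.98). miR-214-5p had 1559 ± 56.0 CPM in controls and 1055 ± 70.5 CPM in caNrf2 fibroblasts, miR-181b-5p 3719 ± 195 and 2606 ± 111 CPM, and miR-148a-3p 14799 ± 989 and 9576 ± 509 CPM. In all, 42 miRNAs had an r above 0.9 with miR-10b-5p. For miR-10a-5p there were 10, led by miR-152-5p (0.97), miR-300-3p (0.95) and miR-493-3p (0.94). miR-152-5p had 311 ± 22.1 and 227 ± 15.9 CPM. The 6 points share the difference between the groups and the library scaling, so these values describe the libraries and carry no test.

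Marker miRNAs were set beside the fibroblast label, which their sums alone do not establish. For scale, edgeR called 98 of all 697 tested miRNAs higher and 81 lower. Summed over 8 mesenchymal miRNAs (miR-199, miR-214, miR-143, miR-145a, miR-21a and miR-22 species) the level was 412655 to 420533 CPM in controls and 449558 to 488148 CPM in caNrf2 libraries. Most of this sum in controls was miR-22-3p, miR-21a-5p and miR-143-3p (means 178081, 108338 and 84270 CPM). Of these 8 miRNAs, miR-22-3p rose, and miR-199a-5p, miR-199a-3p and miR-199b-5p fell to 70.4%, 75.5% and 72.9% of control. Without miR-22-3p and miR-143-3p, the 2 with the largest gains in CPM, the sums were 149740 to 161257 and 127586 to 157907 CPM, which overlap. Of 7 blood miRNAs 4 rose, with sums of 386 to 476 and 648 to 760 CPM that were mostly miR-486a-5p (1.38-fold). Without miR-486a-5p the sums were 37.0 to 70.7 and 157 to 234 CPM and did not overlap. The leukocyte miRNAs miR-142a-5p, miR-142a-3p and miR-223-3p rose 3.60-, 3.35- and 3.74-fold, while miR-150-5p was at 0.930-fold (edgeR adjusted p = 0.693). The erythroid miR-451a was at 1.39-fold (edgeR adjusted p = 0.114). The erythroid miR-144-3p, with group means under 1 CPM, was at 0.501-fold (edgeR adjusted p = 0.0873). At an unadjusted edgeR p under 0.05, 5 of the 7 were higher and 1 lower. All 5 tested muscle miRNAs of 6 listed rose (347 to 426 and 564 to 747 CPM), while miR-1a-3p of muscle fibres had 9 and 16 counts in all. Of 6 tested neural and melanocyte miRNAs of 7 listed 3 rose (miR-9-5p, miR-338-3p and miR-138-5p), and miR-124-3p of neurons had 8 and 9 counts. Their sums were 458 to 638 and 1095 to 1304 CPM, and without miR-138-5p, which went from 63.2 ± 11.7 to 694 ± 84.3 CPM, they were 407 to 564 and 492 to 534 CPM and overlapped. Of 8 epithelial miRNAs (1081 to 1932 and 1661 to 2205 CPM) 0 passed with edgeR and 1 was higher at an unadjusted p under 0.05, and DESeq2 and limma-voom each called 1 higher. Of 2 endothelial miRNAs (116 to 165 and 147 to 170 CPM) 0 passed with edgeR, DESeq2 or limma-voom, and 0 had an unadjusted p under 0.05. The sums without single miRNAs were added after the values were seen. The part of these cell types in the falls of the miR-10 arms was not tested.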

How the data were processed

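Small RNA of 6 libraries (3 caNrf2, 3 ctrl) was sequenced, and the deposited files hold raw counts of reads per mature miRNA, 1 library per file. Per the submitters' processing notes, the tools were CASAVA 1.8, Bowtie, cutadapt, edgeR and featureCounts, with mm10 as the genome build. Their order and settings, the miRNA annotation and how reads that map more than once were handled are, in the sources used here, not given. Per the file headers all libraries came from 1 run and lane. No molecular identifiers are named.

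Sample titles gave the group and the replicate number. The members and lists were chosen with earlier results of these data known. Counts were fitted over the whole table in R 4.3.3 by edgeR 4.0.16: filterByExpr (minimum count 10), TMM scaling, then glmQLFit and glmQLFTest with the group alone in the model. Adjustment (Benjamini-Hochberg, threshold 0.05) covered the 697 tested miRNAs. TMM factors lay between 0.984 and 1.04. SEs were derived from the F statistic. For ratios and shares, exact permutation tests (two-sided) ran over the 20 assignments of libraries. Pairs of libraries within a group differed beyond sampling noise (lowest chi-square per degree of freedom 101).

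Named miRNAs were the 7 members, the other arms of their precursors, sequence relatives, and the 3 miRNAs with the highest correlation with miR-10a-5p and miR-10b-5p. Marker miRNAs and the ratios of miR-615-3p to miR-615-5p, miR-196a-1-3p to miR-196a-2-3p and miR-10a-3p to miR-196a-1-3p were added to these, the ratios after their values were seen. Positions came from GENCODE M21 and sequences from RefSeq (GRCm38.p6), in which all 7 members matched. The hairpin of Mir615 is named only. Alternatives were RLE factors, library totals, TMM computed without the top 5 miRNAs, limma-voom (limma 3.58.1), DESeq2 1.42.0, no filter, a filter on a mean of 10 CPM, a replicate block, and leaving out each library; for ratios a pseudocount of 1, and for shares a total without miR-22-3p. The scripts were tested on simulated data.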

Additional observations from a re-analysis of the deposited data

How the results depend on the processing

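The 4 miR-10 arms kept their direction and their call in all 14 alternatives. Without each library in turn, log2 fold changes ran from -0.84 to -0.55 for miR-10a-5p, -0.68 to -0.52 for miR-10a-3p, -0.66 to -0.53 for miR-10b-5p and -0.79 to -0.57 for miR-10b-3p. miR-196a-5p gained a call with RLE factors (-0.30, edgeR adjusted p = 0.0467) and with a replicate block (-0.26, 0.0347), and ran from -0.36 to -0.22 without each library. miR-196b-5p ran from -0.26 to 0.049 without each library, turning without ctrl library 3. miR-196a-1-3p turned to 0.0077 with library totals and 0.0045 where the mean had to reach 10 CPM, and ran from -0.18 to 0.056 without each library; miR-99b-5p (-0.029 to 0.21) and let-7a-5p (-0.0027 to 0.084) turned without ctrl library 3 and caNrf2 library 3. Ratios ran from -0.28 to 0.046 for miR-10a-5p over miR-10b-5p and from -6.08e-04 to 0.18 for miR-10b-5p over miR-10b-3p without each library. The number of miRNAs called higher was 98, and 60 under the same filter, where fewer were tested. The causes of the other moves were not tested.

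Same-numbered libraries of the 2 groups did not deviate together (correlations 0.18, 0.11 and -0.22), so the replicate numbers were not taken as pairs. The replicate block changed no call of the 7 other than that of miR-196a-5p. Depth limits miR-196b-3p, with 4 to 25 counts per library.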
